A study of Danio rerio with 24 samples.

Results

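Gene expression was compared between zebrafish larvae kept in cannabidiol (CBD) and larvae kept in tetrahydrocannabinol (THC) until 96 hours post-fertilisation (hpf). The comparison takes every library labelled CBD or THC at 96 hpf, which gives 4 and 4 libraries, 8 of the 24 in the series, and it covers all genes. The 4 libraries of larvae kept in the solvent DMSO at 96 hpf supplied the background. All 3 groups were of the transgenic line Tg(fli1:egfp), in which the *fli1* promoter, active in vessel endothelium, drives a green fluorescent reporter, and the fish were exposed all through development. The sources used here do not give doses, the number of larvae in a library or whether libraries came from separate clutches, so the p-values reflect only how these libraries vary, which may be technical. The series addresses the developmental toxicity of both compounds.

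Both compounds are cannabinoids of the hemp plant with the same formula. Their named difference in structure is a pyran ring, which is closed in THC and open in CBD, leaving CBD a further free phenol. Fish larvae, like mammals, meet foreign compounds with oxidising enzymes of the cytochrome P450 families, with conjugating enzymes that attach glucuronate, sulfate or glutathione, and with membrane pumps that carry the products out of the cell. In vertebrates the transcription factor Nrf2 switches on many conjugating and antioxidant genes, and the aryl hydrocarbon receptor (AHR) switches on enzymes of the CYP1 family.

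Library totals ran from 14879976 to 29641377 counts with CBD, from 16998071 to 26755641 with THC and from 19388214 to 25045751 with DMSO. A floor of detection of 3 counts per library equals between 0.101 and 0.202 CPM (counts per 1e6) across the 12 libraries, and this floor covers counting error only. Lens crystallin genes summed to between 8693 and 12660 CPM in the 8 CBD and THC libraries, against 7.52 to 31.4 CPM in libraries of 10 hpf, 1 shallow DMSO library left aside. Genes of the gastrula stage summed to between 55.3 and 83.8 CPM in the larvae and to between 735 and 1710 CPM at 10 hpf, and the pluripotency factor *nanog* reached at most 0.208 CPM in a larval library. The labels give no batch. In the first principal component of the 12 larval libraries, which held 27.1% of the variance, DMSO and THC libraries numbered 1 and 2 lay on one side and those numbered 3 and 4 on the other, while CBD library 1 lay with the former and the other CBD libraries with the latter.

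Among the 24 named genes with the smallest p between CBD and THC, 22 stood lower with CBD. Of the 24, 15 belong to the lists of foreign compound metabolism and oxidative stress. Those lists were chosen with earlier results of these data known, so this membership describes the genes and supports nothing. These 24 are a description, since no gene passed the test between CBD and THC (0 of 21409, 0%, in either direction, by the quasi-likelihood F test of edgeR at an adjusted p under 0.05). The smallest adjusted p was 0.121, shared by *UGDH* and *ptgr1.2*. At an unadjusted p under 0.05 there were 540 genes, against 1070 that this threshold gives by chance, 299 of them lower with CBD (1.4% of those tested) and 241 higher (1.13%). With p adjusted over the 3 pairs of groups together, the count was also 0. The Wald test of DESeq2 called 14 genes, all lower with CBD (0.0654%), and limma voom with a weight per library called 3, all lower (0.014%). A fit of only the 8 libraries called 3, 1 higher and 2 lower, and leaving out THC library 3 left 1 call, *ptgr1.2* (adjusted p = 0.0172). The count at an unadjusted p under 0.05 also depended on the fit. It was 563 by DESeq2, 1179 by limma voom and 917 with only the 8 libraries. In whole larvae, fewer cells of a type and less RNA per cell cannot be told apart, here and in all values that follow.

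The intervals bounded the difference for most genes, each taken alone and only against the spread between these libraries, which may be technical. The 95% interval of the difference between CBD and THC lay within 2-fold either way for 86.2% of the 21409 genes, and for 97.6% of the 11226 genes with at least 10 CPM. Within 1.5-fold it lay for 59% and 85% of the same sets. The median log2 fold change over all genes was −0.00277, and the median standard error (SE) was 0.179. A gene that missed the threshold is not thereby shown to respond alike to both compounds.

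**Figure D1:**
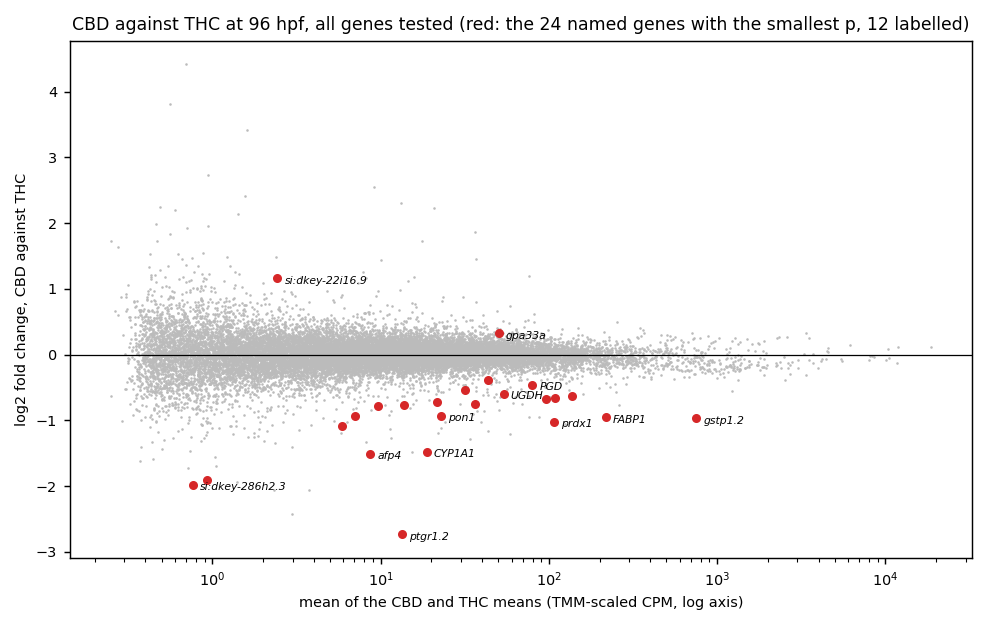
Log2 fold change of CBD against THC at 96 hpf for each of the 21409 genes tested, against the mean of the CBD and THC means in CPM on a log axis. The 24 named genes with the smallest p are in red, 22 of them below 0, with *ptgr1.2* lowest at −2.73.

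The 24 genes with a name, at least 1 CPM and the smallest p between the compounds serve as the leading genes. CBD stood lower in 22 of them and higher in 2. All 4 CBD libraries lay below all 4 THC libraries in 21 of the 24, an arrangement found in 241 of all genes (1.13%), and above them in 2, an arrangement of 316 genes (1.48%). As these genes were taken by their p, their direction and lack of overlap describe them and support nothing. CBD and DMSO libraries overlapped in 19 of the 24, and the CBD mean lay between the DMSO and THC means in 18. The shares of all genes with these arrangements were not computed, so these counts only describe the 24.

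*UGDH* (ENSDARG00000019838) encodes the enzyme that makes UDP-glucuronate, which glucuronosyltransferases attach to foreign compounds and which is also a building block of cartilage matrix. It stood at 40.2, 38.8, 46.8 and 45.9 CPM in CBD libraries 1 to 4 and at 60.7, 66.3, 64.7 and 67.5 CPM in THC libraries 1 to 4. DMSO libraries held 33.7, 35.9, 33.1 and 34.2 CPM, so that the 3 groups did not overlap and CBD lay between the others. CBD against THC gave a log2 fold change of −0.59 (SE 0.0891, 95% interval −0.78 to −0.40, adjusted p = 0.121). DESeq2 called it at an adjusted p of 6.61e-07 and limma voom at 0.0496.

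Enzymes of reduction and hydrolysis came next. *ptgr1.2* (ENSDARG00000087017), a prostaglandin reductase that also reduces reactive aldehydes, stood at 3.38, 3.41, 4.12 and 3.03 CPM with CBD and at 23.5, 40.2, 9.07 and 20.2 CPM with THC. The THC libraries were all higher but spread over a wide range, and the DMSO libraries, at 1.13 to 4.30 CPM, enclosed the CBD range. Its log2 fold change of −2.73 (SE 0.412, 95% interval −3.62 to −1.85, adjusted p = 0.121) was the lowest among all genes tested. It was called by DESeq2 (adjusted p = 3.61e-08) and without the filter on low counts (adjusted p = 0.0477).

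*pon1* (ENSDARG00000032496), a paraoxonase that splits lactones and organophosphates, held 13.5, 18.1, 15.04 and 16.3 CPM with CBD and 32.1, 36.0, 26.3 and 25.5 CPM with THC. Every THC library was above every CBD library, and the DMSO range of 10.7 to 18.1 CPM covered most of the CBD values. Its log2 fold change was −0.93 (SE 0.165, adjusted p = 0.413), and DESeq2 (adjusted p = 0.000515) and limma voom (adjusted p = 0.0496) both called the gene. The carbonyl reductase *cbr1l* (ENSDARG00000021149) averaged 74.3 ± 5.09 CPM with CBD, 119 ± 22.5 CPM with THC and 69.4 ± 5.05 CPM in the solvent (SD, n = 4 each), a log2 fold change of −0.68 between the compounds (SE 0.124, adjusted p = 0.441).

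Several leading genes act on glutathione or peroxides. *gstp1.2* (ENSDARG00000104068), a pi-class glutathione transferase, stood at 513, 540, 472 and 505 CPM with CBD and at 1183, 1325, 743 and 726 CPM with THC. CBD libraries were close together and all below the THC libraries, of which those numbered 1 and 2 were the higher pair. DMSO libraries held 386 to 530.5 CPM. CBD against THC gave −0.97 on the log2 scale (SE 0.186, adjusted p = 0.557; DESeq2 adjusted p = 0.000757). The omega-class transferase *gsto1* averaged 3.76 ± 0.612 CPM with CBD against 7.995 ± 3.49 CPM with THC, and the microsomal transferase *mgst3b* averaged 107 ± 14.4 and 166 ± 44.8 CPM, with log2 fold changes of −1.08 and −0.63 that missed the threshold in edgeR, DESeq2 and limma voom.

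Peroxiredoxin *prdx1* (ENSDARG00000058734), which breaks down hydrogen peroxide, stood at 92.0, 62.6, 62.3 and 64.2 CPM with CBD and at 164, 200.4, 107 and 101 CPM with THC. CBD library 1 was above the other CBD libraries and still below all THC libraries. This amounted to a log2 fold change of −1.02 (SE 0.204, adjusted p = 0.57; DESeq2 adjusted p = 0.00287). *GCLC*, the catalytic subunit of the rate-limiting enzyme of glutathione synthesis, averaged 37.6 ± 1.45 CPM with CBD, 49.3 ± 2.74 CPM with THC and 36.5 ± 3.57 CPM in the solvent. *PGD*, which supplies NADPH from the pentose phosphate pathway, averaged 67.4 ± 2.81, 92.5 ± 11.3 and 60.0 ± 3.46 CPM in that order. Both had a log2 fold change of less than 1 in size (−0.39 and −0.46) and were called by DESeq2 (adjusted p = 0.0356 and 0.01).

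Glutathione reductase *GSR*, which restores oxidised glutathione with NADPH, averaged 38.1 ± 0.903 CPM with CBD, 52.1 ± 8.89 CPM with THC and 30.7 ± 4.25 CPM in the solvent. Its CBD libraries lay wholly below the THC libraries and wholly above the DMSO libraries. The factor *nfe2l2b*, a zebrafish relative of Nrf2, stood at 5.24 to 7.69 CPM with CBD, 8.66 to 12.8 CPM with THC and 4.03 to 5.80 CPM with DMSO, with a log2 fold change of −0.70 between the compounds (SE 0.184, adjusted p = 1). Over the oxidative stress list, 34 of 37 tested genes stood lower with CBD than with THC, with a median log2 fold change of −0.26, against 50.8% and −0.0028 over all genes. Of the 37, 17 had an unadjusted p under 0.05 and 12 had all CBD libraries below all THC libraries, and none was called by edgeR. Over all genes, 1.4% were lower with CBD at that p and 1.13% lay wholly below. In the list of glutathione transferases 13 of 17 stood lower, with a median of −0.28, 7 at an unadjusted p under 0.05 and 5 wholly below. All gene lists were chosen with earlier results of these data known. Their counts and medians, here and in the paragraphs below, describe the members and support nothing.

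**Figure D2:**
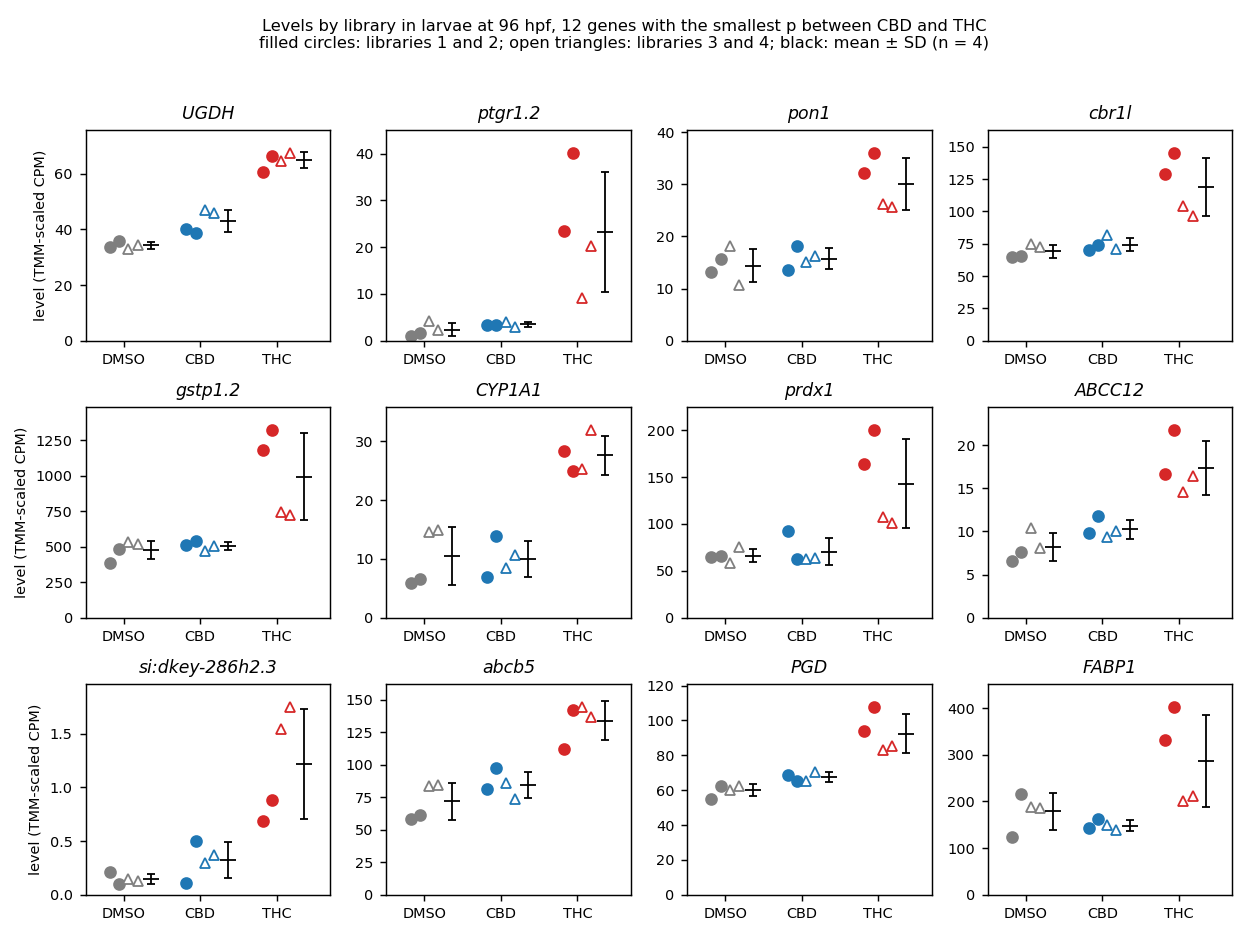
TMM-scaled CPM by library for the 12 leading genes with the smallest p, in DMSO, CBD and THC larvae at 96 hpf, with the mean and SD (n = 4) in black, filled circles for libraries 1 and 2 and open triangles for libraries 3 and 4. All CBD points lie below all THC points in each panel, and THC libraries 1 and 2 exceed 3 and 4 in *gstp1.2* (1183 and 1325 against 743 and 726 CPM) while *UGDH* is even (60.7 to 67.5 CPM).

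The leading genes included 3 pumps of the ABC family, which moves conjugates and bile salts across membranes. *ABCC12* (ENSDARG00000013050) held 9.81, 11.7, 9.32 and 10.0 CPM with CBD and 16.6, 21.8, 14.6 and 16.4 CPM with THC. *abcb5* (ENSDARG00000021787), a relative of the drug pump P-glycoprotein, held 81.1, 97.1, 85.5 and 73.3 CPM with CBD and 112, 142, 144.5 and 136 CPM with THC. Neither gene overlapped between the compounds, and both did between CBD and DMSO. The log2 fold changes were −0.77 (SE 0.159) and −0.67 (SE 0.141), each with an adjusted p of 0.633 by edgeR and 0.00911 by DESeq2. *ABCB11*, a bile salt export pump, averaged 7.12 ± 0.567 CPM with CBD against 12.3 ± 2.48 CPM with THC, with no overlap. Of the 20 transporters tested in the list, 13 stood lower with CBD, with a median of −0.17, 5 at an unadjusted p under 0.05 and 4 wholly below, while 7 stood higher, up to 0.41. The shares over all genes were 1.4% lower at that p and 1.13% wholly below.

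The AHR target *CYP1A1* (ENSDARG00000098315, zebrafish cyp1a), an enzyme that oxidises aromatic compounds, stood at 6.87, 13.8, 8.53 and 10.7 CPM with CBD and at 28.3, 24.9, 25.3 and 32.0 CPM with THC. The THC libraries were even and all above the CBD libraries, and the CBD libraries lay within the DMSO range of 5.92 to 14.9 CPM. The log2 fold change was −1.48 (SE 0.29, 95% interval −2.10 to −0.86, adjusted p = 0.566). DESeq2 (adjusted p = 0.00102), limma voom (adjusted p = 0.0496) and a fit of only the 8 libraries (adjusted p = 0.0478) called it. The other AHR target with an unadjusted p under 0.05 was *NQO1*, a quinone reductase also under Nrf2, at 54.7, 59.16, 76.2 and 73.2 CPM with CBD and 79.2, 91.9, 77.95 and 68.5 CPM with THC. Its groups overlapped, and its log2 fold change was −0.27 (95% interval −0.54 to −0.0058, adjusted p = 1). *CYP1B1* averaged 2.35 ± 0.530 CPM with CBD against 1.91 ± 0.467 CPM with THC, *cyp1c1* 11.6 ± 1.74 and 12.3 ± 1.58 CPM, and the AHR repressor *ahrra*, kept in the list of AHR partners, 0.950 ± 0.211 and 1.13 ± 0.443 CPM. Their 95% intervals of −0.21 to 0.78, −0.44 to 0.25 and −0.90 to 0.41 all included 0 and lay within 2-fold either way. Of the 9 AHR targets tested 5 stood lower with CBD, with a median of −0.09.

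Cytochrome P450 enzymes of families that oxidise drugs and fatty acids were mixed. In the list of 40 tested genes 28 stood lower with CBD, with a median of −0.16, 4 at an unadjusted p under 0.05 and 3 wholly below. The shares over all genes were 1.4% lower at that p and 1.13% wholly below. *cyp2k18* averaged 6.75 ± 1.37 CPM with CBD, 16.2 ± 5.33 CPM with THC and 3.81 ± 2.89 CPM in the solvent, a log2 fold change of −1.27 between the compounds (SE 0.368, adjusted p = 1). *cyp3a65* averaged 35.7 ± 3.69 CPM with CBD against 82.3 ± 46.7 CPM with THC, where THC library 2 held 148 CPM and library 3 held 39.2 CPM, just above the highest CBD library with 39.1 CPM. In the list of glucuronosyltransferases and sulfotransferases 24 of 36 stood lower, with a median of −0.16. *ugt2a4* averaged 27.2 ± 4.34 CPM with CBD against 38.2 ± 5.61 CPM with THC, and the sulfotransferase *sult6b1* averaged 59.5 ± 2.05 and 88.4 ± 25.2 CPM. Near-identical paralogs, in these and other gene families, may share reads. How such reads were handled is not given, so values of single members are less certain.

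In 5 leading genes, *CYP1A1*, *tspo*, *FABP1*, *apobb.2* and *afp4*, the CBD mean lay below the DMSO mean as well as the THC mean. For *tspo* the means were 25.9 CPM with CBD and 27.8 CPM with DMSO. *FABP1* (ENSDARG00000059227), named for the human fatty acid binding protein of liver, stood at 142, 163, 149 and 138 CPM with CBD and at 332, 403, 199.9 and 212 CPM with THC. CBD libraries were even and all below the THC libraries, and the DMSO libraries, at 124, 216, 189 and 185 CPM, lay on both sides of the CBD range, library 1 below it and the others above. On the log2 scale the difference was −0.95 between CBD and THC (SE 0.214, adjusted p = 0.914; DESeq2 adjusted p = 0.0221) and −0.27 between CBD and DMSO (95% interval −0.73 to 0.19).

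*apobb.2* (ENSDARG00000075016), an apolipoprotein B of lipoprotein particles, stood at 2.84, 6.06, 6.10 and 4.48 CPM with CBD, at 10.0, 6.99, 9.79 and 10.34 CPM with THC and at 9.64, 8.78, 8.89 and 7.26 CPM with DMSO. CBD lay wholly below both other groups, which overlapped each other. Its log2 fold change was −0.94 against THC (SE 0.218) and −0.84 against DMSO (SE 0.218), with adjusted p values of 1 by edgeR and 0.046 against THC by DESeq2. *afp4* (ENSDARG00000041490) held 3.34, 4.99, 3.33 and 6.44 CPM with CBD, 9.86, 4.69, 12.8 and 23.9 CPM with THC and 7.78 to 10.9 CPM with DMSO. THC library 2 lay within the CBD range, and the CBD libraries lay wholly below the DMSO libraries. The log2 fold changes of −1.51 against THC (SE 0.378) and −1.07 against DMSO (SE 0.377) each had an adjusted p of 1 by edgeR, and DESeq2 put the former at 0.0491.

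In both leading genes that stood higher with CBD, the THC mean lay below the DMSO mean. *gpa33a* (ENSDARG00000100223), whose human relative is a surface glycoprotein of gut epithelium, held 59.4, 54.2, 54.7 and 55.2 CPM with CBD and 46.8, 45.1, 43.2 and 43.2 CPM with THC. CBD overlapped DMSO, at 53.8 to 61.3 CPM, and THC lay below both. The log2 fold change was 0.33 (SE 0.0819, adjusted p = 1). *si:dkey-22i16.9* (ENSDARG00000095949), a clone-named gene, averaged 3.36 ± 0.310 CPM with CBD, 1.52 ± 0.531 CPM with THC and 2.55 ± 0.855 CPM in the solvent.

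The other leading genes not described above stood lower with CBD. *TSTD1*, named for a sulfurtransferase domain, averaged 16.5 ± 0.480 CPM with CBD against 27.1 ± 8.57 CPM with THC, *aifm4* 27.3 ± 2.24 and 45.8 ± 7.94 CPM, and *tspo*, a cholesterol-binding protein of the outer mitochondrial membrane, 25.9 ± 2.87 and 37.7 ± 6.53 CPM. The clone-named genes *si:dkey-286h2.3* and *zgc:123284* lay near the floor of detection with CBD, at 0.321 ± 0.166 and 0.398 ± 0.262 CPM, and averaged 1.22 ± 0.510 and 1.46 ± 0.372 CPM with THC. None of these 5 was called by limma voom or DESeq2, and DESeq2 gave the clone-named pair no adjusted p.

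Each compound was also compared with the solvent. The leading genes were taken by their p between CBD and THC, so in them a gap between these comparisons follows from the choice. Both comparisons share the 4 DMSO libraries, so they are not independent of each other. No gene passed between CBD and DMSO (0 of 21409, 0% in either direction, edgeR), with 299 higher (1.4%) and 111 lower (0.518%) at an unadjusted p under 0.05, and 0 by DESeq2 and limma voom. Between THC and DMSO 11 genes rose (0.0514%) and 0 fell by edgeR. At an unadjusted p under 0.05 there were 588 higher (2.75%) and 214 lower (1%), and DESeq2 called 54, of which 51 were higher and 3 lower. The edgeR count was 18 with no filter on low counts, 1 with only the 8 libraries of that comparison, 0 against a fold of 1.5 and 1, *UGDH*, adjusted over the 3 pairs together. It went from 11 to 31 without DMSO library 3, to 2 without THC library 2 or 3, and to 1 without THC library 1 or without DMSO library 1, 2 or 4. For *UGDH* the log2 fold change against DMSO was 0.33 with CBD (95% interval 0.14 to 0.52, adjusted p = 1) and 0.92 with THC (0.73 to 1.11, adjusted p = 0.0014). For *ptgr1.2* it was 0.57 with CBD (−0.36 to 1.503) and 3.30 with THC (2.38 to 4.22, adjusted p = 0.0226 over that pair alone, a call lost when adjusted over the 3 pairs). For *CYP1A1* it was −0.09 with CBD (−0.71 to 0.54) and 1.39 with THC (0.77 to 2.01, adjusted p = 0.213), and for *gstp1.2* 0.08 (−0.31 to 0.48) and 1.05 (0.65 to 1.45, adjusted p = 0.0838).

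**Figure D3:**
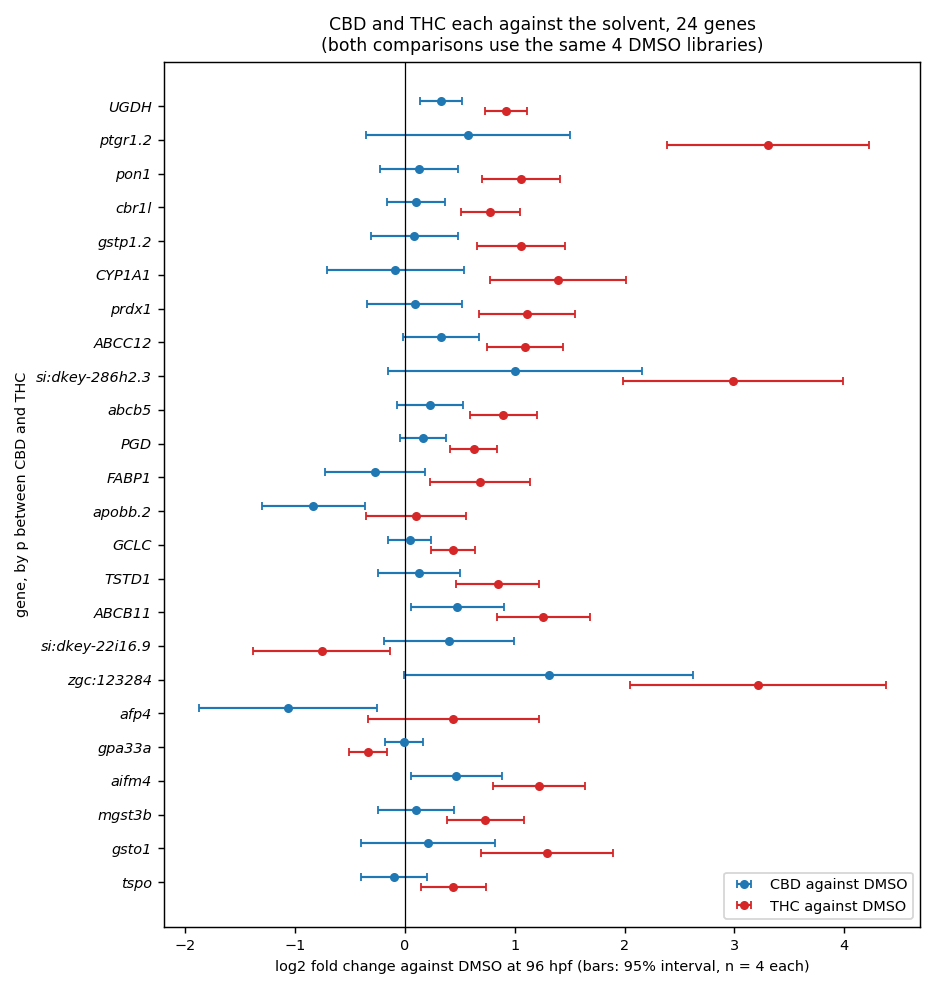
Log2 fold change against DMSO at 96 hpf for the 24 leading genes, CBD in blue and THC in red, with 95% intervals (n = 4 in each group). Blue points lie nearer to 0 than red ones in most rows, as for *UGDH* (0.33 and 0.92) and *gstp1.2* (0.08 and 1.05), while *apobb.2* and *afp4* lie left of 0 with CBD (−0.84 and −1.07). The genes were taken by their p between CBD and THC, so a gap between the colours follows from the choice.

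The size of the difference was uneven across libraries. In 12 of the 22 leading genes that stood lower with CBD (54.5%), THC libraries 1 and 2 were both above THC libraries 3 and 4, against 26.5% of all genes. In 2 (9.09%) both were below, against 26.8% of all genes. CBD libraries 1 and 2 were both above 3 and 4 in 2 of the 22 (9.09%, against 19%) and both below in 1 (4.55%, against 17%). DMSO libraries 1 and 2 were both above in 1 (4.55%, against 24.3%) and both below in 7 (31.8%, against 28.4%). Within libraries 1 and 2 the log2 fold change of CBD against THC was −1.25 for *gstp1.2*, −1.07 for *TSTD1* and −0.69 for *UGDH*. Within libraries 3 and 4 it was −0.59, −0.26 and −0.51 in the same order. *CYP1A1* was −1.39 and −1.57, and *abcb5* was −0.51 and −0.82, so the former pair was not the larger in each gene. A fit of only the libraries numbered 1 and 2, chosen after seeing the data, called 27 genes, 15 lower and 12 higher with CBD, and a fit of those numbered 3 and 4 called 0. The difference between these fits was not tested, and the labels do not say what the numbers stand for. In the first principal component CBD library 2 (23.7) lay opposite THC libraries 1 and 2 (−29.9 and −10.5), while CBD library 1 (−22.96) lay between them. CBD and THC libraries 3 and 4 all lay on the same side. The part of that component in the fit of libraries 1 and 2 was not tested.

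**Figure D4:**
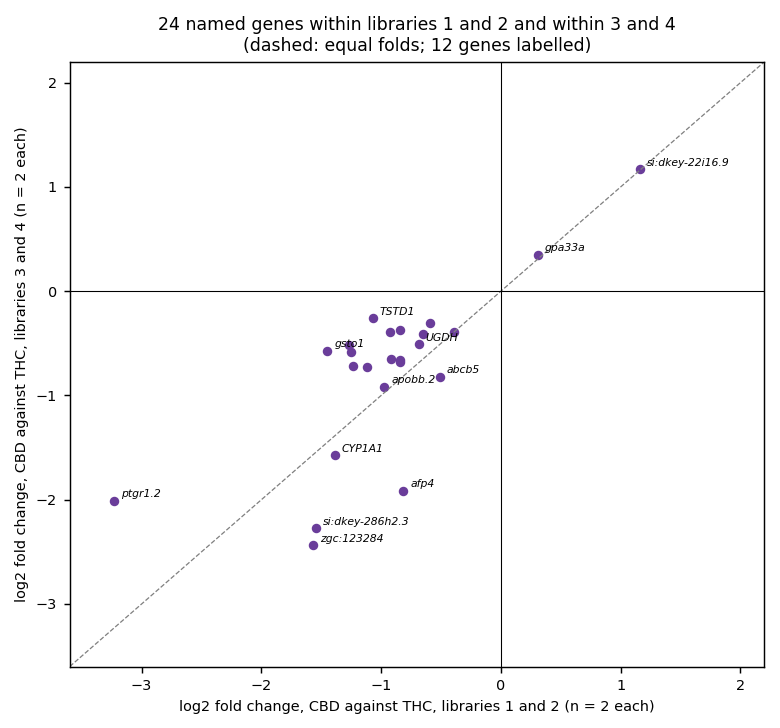
Log2 fold change of CBD against THC within libraries 1 and 2 (horizontal) and within libraries 3 and 4 (vertical) for the 24 leading genes, n = 2 per group in each, with a dashed line at equal folds. *ptgr1.2* lies furthest left (−3.23 and −2.01), *CYP1A1* near the line (−1.39 and −1.57), and each point keeps one sign on both axes, which genes without overlap must do and *afp4*, whose groups overlap, need not.

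*SIK1*, *BTG2*, *JDP2* and *CCN1*, higher with CBD in libraries 1 and 2, stood lower with CBD in libraries 3 and 4. *SIK1*, a kinase induced by cAMP, stood at 74.8 and 67.3 CPM in CBD libraries 1 and 2 and at 28.4 and 27.03 CPM in CBD libraries 3 and 4. With THC it stood at 14.9, 26.8, 63.5 and 23.7 CPM, and with DMSO at 18.5, 13.7, 97.5 and 30.9 CPM. The high libraries were thus CBD 1, CBD 2, THC 3 and DMSO 3, in all 3 groups. *BTG2*, which slows cell division, *JDP2*, a partner of AP-1 factors, and *CCN1*, a matrix protein, had their 4 highest values in the same libraries. *SIK1* had a log2 fold change of 1.76 within libraries 1 and 2 (adjusted p = 0.0284, edgeR) and of −0.66 within libraries 3 and 4. Those of *BTG2*, *JDP2* and *CCN1* were 1.2985, 1.52 and 1.27 within libraries 1 and 2 (adjusted p = 0.0311, 0.0314 and 0.0314, edgeR), and −0.77, −0.97 and −0.25 within libraries 3 and 4. These 4 genes were chosen after their values were seen, and over all libraries their adjusted p was 1.

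Marker genes of liver, gut and pancreas were described beside the detoxification genes. Of 46 tested plasma proteins of hepatocytes 30 stood lower with CBD than with THC, with a median log2 fold change of −0.12. Their summed level ran from 12560 to 15830 CPM with CBD, from 16550 to 17780 CPM with THC and from 11880 to 18450 CPM with DMSO, so that CBD and THC did not overlap while DMSO spanned both. The smallest p in this list belonged to *ahsg2*, named for a fetuin of plasma, which went the other way, at 0.791, 1.83, 1.16 and 1.03 CPM with CBD and 0.459, 0.354, 0.651 and 0.339 CPM with THC. Its CBD libraries all lay above its THC libraries (log2 fold change 1.35, SE 0.373, adjusted p = 1, edgeR). Transferrin *tfa* averaged 987 ± 190 CPM with CBD against 1453 ± 192 CPM with THC, and the protease inhibitor *serpina1* averaged 185 ± 28.5 and 250.9 ± 9.66 CPM, both without overlap. Only *hp* of this list was not tested, with 10 counts over the CBD libraries, 1 over the THC libraries and 0 over the DMSO libraries. Enterocyte genes stood lower in 25 of 35, with a median of −0.15 and summed levels of 2778 to 3212 CPM with CBD, 2978 to 3892 CPM with THC and 2163 to 3253 CPM with DMSO. Within libraries 3 and 4 the enterocyte median was 0.0052. The part of these tissues in the differences above was not tested.

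Digestive enzymes of the exocrine pancreas stood lower in 19 of 22, with a median of −0.30, and none had an unadjusted p under 0.05 or lay wholly below. Their summed level ran from 1483 to 2953 CPM with CBD, from 1107 to 4039 CPM with THC and from 578 to 3118 CPM with DMSO, so all groups overlapped. The elastase *ela2* stood at 82.6, 144, 49.0 and 43.4 CPM with CBD and at 139, 259.7, 50.3 and 50.8 CPM with THC. The amylase *amy2a* stood at 18.1, 48.6, 15.4 and 25.7 CPM with CBD and at 50.3, 83.8, 26.0 and 16.2 CPM with THC. THC library 2 was the highest of the 8 libraries in both enzymes, and the list's median was −0.53 within libraries 1 and 2 and 0.08 within libraries 3 and 4.

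Proteasome subunits stood lower with CBD in 34 of 36 by a small amount, with a median of −0.15 and none below −0.25. *PSMA4* averaged 114 ± 13.0 CPM with CBD against 135 ± 28.2 CPM with THC, and *PSMB7* averaged 143 ± 19.2 and 168 ± 30.3 CPM. Both overlapped between the compounds, and no subunit reached an unadjusted p under 0.05. Within libraries 3 and 4 the median of the list was 0.03.

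**Figure D5:**
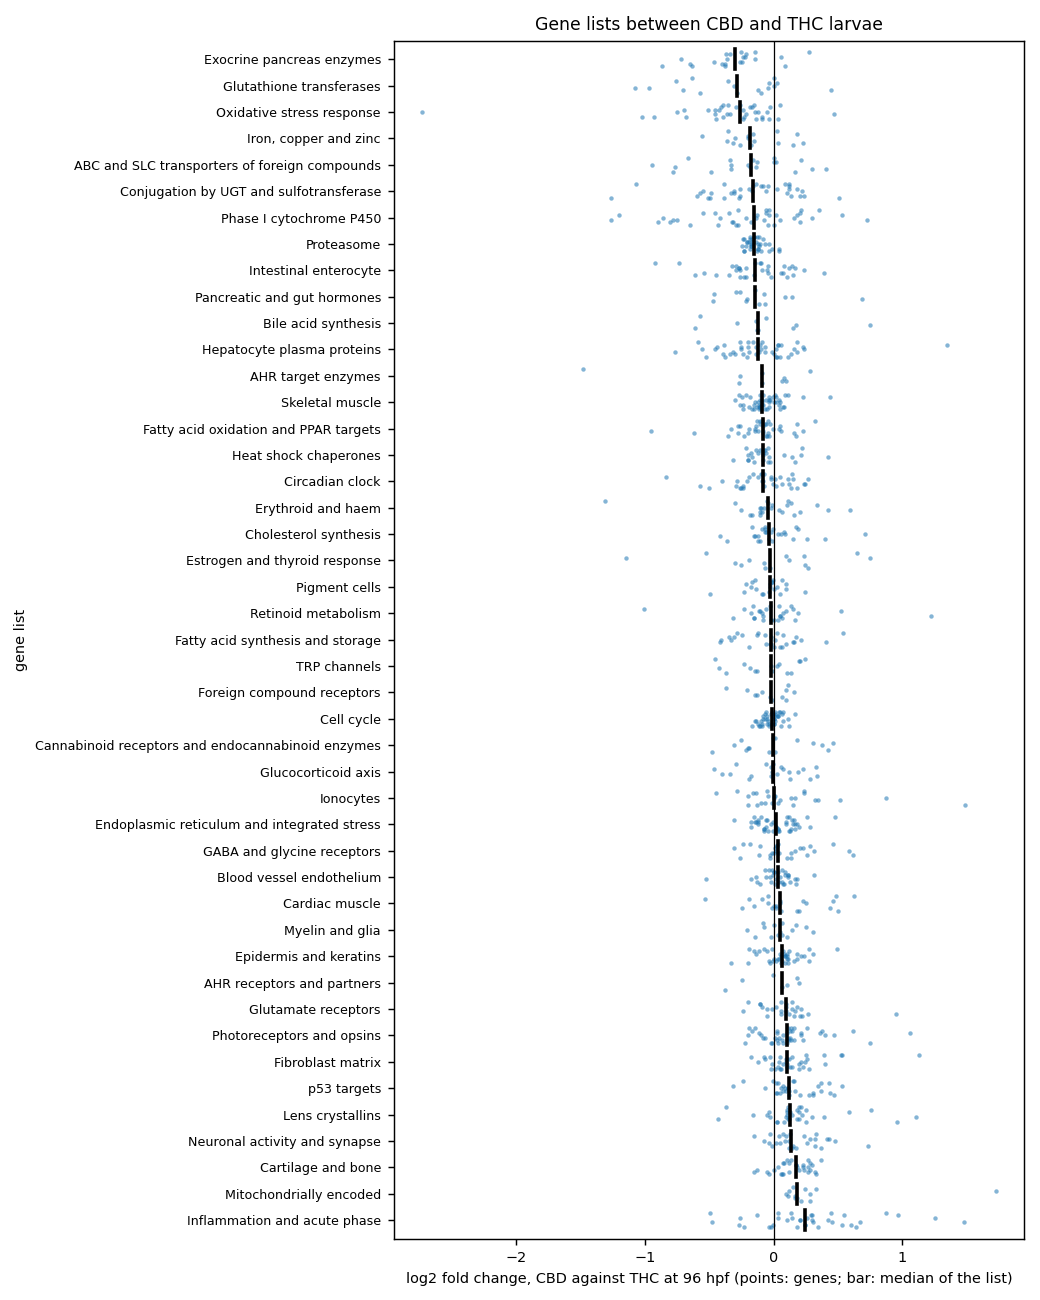
Log2 fold change of CBD against THC for each tested gene (points) of 45 gene lists, ordered by the median of the list (black bar). The lowest medians are those of exocrine pancreas enzymes (−0.30), glutathione transferases (−0.28) and the oxidative stress response (−0.26), and the highest is that of inflammation and acute phase genes (0.24).

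No member of any list was called between CBD and THC by edgeR. Genes of inflammation and the acute phase stood higher in 28 of 37, with a median of 0.24, and in 1 of them the unadjusted p was under 0.05. That gene was the cytokine *il1b*, at 4.28, 1.26, 0.898 and 0.747 CPM with CBD and 0.803, 0.708, 0.685 and 0.396 CPM with THC. CBD library 1 stood apart, and the groups overlapped. The collagenase *mmp13a* stood at 31.3, 3.54, 4.38 and 5.23 CPM with CBD and at 3.63 to 5.37 CPM with THC, and *SOCS3*, an inhibitor of cytokine signalling, at 51.5, 24.9, 24.3 and 25.0 CPM with CBD and at 18.9 to 23.0 CPM with THC. Without CBD library 1 the log2 fold change of *mmp13a* was −0.10 in place of 1.26, and the median of the list was 0.16.

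The 13 mitochondrially encoded genes all stood higher with CBD, with a median of 0.18. Mitochondrial counts made up 3.57% to 4.37% of CBD libraries, 2.77% to 4.04% of THC libraries and 1.44% to 3.84% of DMSO libraries, so the groups overlapped. *MT-ND5*, a subunit of complex I, averaged 966 ± 84.5 CPM with CBD against 797 ± 110 CPM with THC. Within libraries 1 and 2 the list's median was −0.02, and within libraries 3 and 4 it was 0.42.

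Structural genes of eye and skeleton lay slightly higher with CBD. Lens crystallins did so in 27 of 33, with a median of 0.13, 4 at an unadjusted p under 0.05 and 4 wholly above THC. The shares over all genes were 1.13% higher at that p and 1.48% wholly above. *CRYBA1* stood at 3.88, 3.91, 2.88 and 3.27 CPM with CBD and at 2.87, 1.99, 2.23 and 2.203 CPM with THC. The groups met without overlapping, and the DMSO range of 3.34 to 4.18 CPM overlapped CBD and lay above THC. The gamma crystallin *crygm5* averaged 13.7 ± 4.28 CPM with CBD against 8.14 ± 1.54 CPM with THC. Cartilage and bone genes stood higher in 27 of 31, with a median of 0.17, among them the chondrocyte factor *SOX9* at 39.7 ± 4.30 CPM with CBD, 32.7 ± 2.77 CPM with THC and 41.7 ± 1.98 CPM in the solvent. The collagen chain *col9a3* averaged 408 ± 50.4 CPM with CBD against 327 ± 60.4 CPM with THC, with overlap.

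Targets of p53 stood higher with CBD in 28 of 32, with a median of 0.12. The apoptosis initiator *casp8* averaged 7.83 ± 1.55 CPM with CBD against 5.66 ± 1.13 CPM with THC, and the membrane protein *PERP* 100.4 ± 13.5 and 81.0 ± 9.97 CPM, while the nucleotide reductase subunit *RRM2B* went the other way with 27.5 ± 4.76 and 34.3 ± 2.73 CPM. Neurons' activity and synapse genes stood higher in 23 of 28, with a median of 0.14, none at an unadjusted p under 0.05, and that median was −0.09 within libraries 3 and 4.

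Receptors and enzymes of the cannabinoid system showed small differences. The receptor gene *CNR1* stood at 0.611, 0.947, 1.05 and 0.607 CPM with CBD and at 0.516, 0.664, 1.404 and 1.02 CPM with THC. The groups overlapped, with a log2 fold change of −0.20 (SE 0.435, 95% interval −1.13 to 0.74). That interval reached past 2-fold lower with CBD but not to 2-fold higher, and differences inside it cannot be told from none. *CNR2* was not among the genes tested. *faah*, which breaks down the endocannabinoid anandamide, averaged 4.86 ± 0.449 CPM with CBD against 5.78 ± 0.478 CPM with THC, and *ABHD4*, an enzyme on the route to anandamide, averaged 18.1 ± 5.47 and 25.3 ± 6.50 CPM. Over the 15 genes of the list 8 stood lower with CBD, with a median of −0.0083, and *ABHD4* was the one with an unadjusted p under 0.05. *FLI1* (zebrafish fli1a), the endothelial gene whose regulatory sequence drives the reporter, averaged 151 ± 20.6 CPM with CBD against 155 ± 35.0 CPM with THC, with a 95% interval of −0.42 to 0.35.

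The difference between the compounds was also set against that in embryos of 10 hpf, over all 24 libraries. No gene passed the test of the stage difference (0 of 22741, 0%, edgeR), with 2458 at an unadjusted p under 0.05, against 1137 by chance, and a smallest adjusted p of 0.426. Without 1 CBD or THC library the count at that p ran from 1641 (THC library 3 of 10 hpf) to 3670 (CBD library 1 of 10 hpf). In CBD libraries of 10 hpf the SD exceeded the mean for some genes, though not for *UGDH*. Examples were *FLI1* (8.195 ± 15.6 CPM), *SOX9* (18.53 ± 31.76 CPM) and *col9a3* (9.038 ± 14.92 CPM). With THC this held for *FLI1* and *SOX9* but not *col9a3*. What the excess over chance reflects was not tested. Leaving out CBD library 1 of 10 hpf gave 2 calls. The fit kept the shallow DMSO library 4 of 10 hpf, and leaving out that library together with CBD library 3 of 10 hpf gave 0. *CYP1A1* averaged 0.545 ± 0.692 CPM with CBD against 0.198 ± 0.0625 CPM with THC at 10 hpf. The log2 difference between the compounds was lower by 3.07 at 96 hpf (SE 0.958, adjusted p = 0.426). A floor of 3 counts equals 0.132 CPM in THC library 4 of 10 hpf and 0.196 CPM in CBD library 3 of 10 hpf. The *CYP1A1* level with THC at 10 hpf thus lay near the floor, and with CBD its SD was above its mean. The size of its stage difference is therefore uncertain. *gstp1.2* averaged 40.7 ± 13.7 and 25.3 ± 15.9 CPM at 10 hpf, and *UGDH* 60.2 ± 17.7 and 63.0 ± 2.97 CPM, with stage differences of −1.63 (SE 0.461) and −0.52 (SE 0.245) that missed the threshold. These genes are among the leading genes at 96 hpf, so the direction of their stage differences follows in part from that choice.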

How the data were processed

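The authors deposited unnormalized counts, as whole numbers of reads for each of 35117 Ensembl identifiers, in a separate file for every library. Per the labels' protocols, RNA was extracted on columns with DNase treatment, and TruSeq libraries were sequenced as pairs of 100 bases. Per the submitters' processing notes, STAR, HTSeq, edgeR and the build GRCz11 were used. The names of the deposited files contain reverse_union, read here as the union mode with reverse strand, which no label states. The sources used here give neither versions nor the handling of reads shared by paralogs. Symbols came from a table covering 27000 of the identifiers, of which 4841 share a symbol, often in human style (*CYP1A1* for cyp1a).

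The 12 libraries of 96 hpf were fitted together by group in edgeR 4.0.16 (R 4.3.3) and tested by quasi-likelihood, after filterByExpr (minimum count 10, minimum total 15) and scaling by trimmed mean of M values (TMM), calling genes at a Benjamini-Hochberg adjusted p under 0.05. All 3 pairs of groups were compared. CPM values are TMM-scaled, as mean ± SD of 4 libraries, except those set against 10 hpf in sums over lists and for *nanog*, which are plain CPM. SE equals the size of the log2 fold change over the root of F, and 95% intervals rest on that SE and 14.04 degrees of freedom. The stage difference was fitted over all 24 libraries. The fit of 96 hpf was also run on counts simulated with known folds and independent libraries. That run does not cover structure between libraries, such as that in the first principal component. Replicates always differed by more than sampling noise (lowest chi-square per degree of freedom 6.97), so each library counted once.

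The 46 gene lists (1453 members written, 1199 matched) and the leading genes were chosen with earlier results of these data known. The rule named up to 15 rises and 15 falls past the threshold, of which there were none, then 24 genes with a symbol, at least 1 CPM in CBD or THC and the smallest p, up to 3 members of each list with the smallest p, and *CYP1A1*, *CYP1B1*, *cyp1c1*, *ahrra*, *CNR1*, *CNR2*, *FLI1*, *UGDH*, *ptgr1.2*, *GSR* and *nfe2l2b*. *SIK1*, *JDP2*, *BTG2*, *CCN1*, *hp* and *nanog* were added after their values were seen. Alternatives were DESeq2 1.42.0 (size factors, Wald test), limma 3.58.1 voom with library weights, 2 other filters, only the 8 libraries compared, replicate blocks, a fold of 1.5, adjustment over the 3 pairs and leaving out each library. Fits of only libraries 1 and 2 or 3 and 4 were added for counts and lists after seeing the data. Lists were described by counts and medians, with no set test. Promoter sequences were not used here, and no motif was searched.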

Additional observations from a re-analysis of the deposited data

Results flagged for a closer look

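A sample far from the other 3 of its group appeared in 20 of 219 groups of 4 examined for the genes named, and chance gives about 5% of groups. Each value below is the gap to the nearest library divided by the range of the group, and each is above Dixon's critical value for 4 samples.

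CBD library 1 stood apart in 6 genes. It was high for the peroxiredoxin *prdx1* (0.934, 92.0 CPM against 62.3 to 64.2), the cytokine *il1b* (0.854), the collagenase *mmp13a* (0.939, 31.3 CPM against 3.54 to 5.23), *SOCS3* (0.976, 51.5 CPM against 24.3 to 25.0), the clock gene *PER2* (0.88, 88.1 CPM against 45.4 to 50.5) and the mitochondrial *mt-atp8* (0.958, 86.7 CPM against 5.72 to 9.15). Values of *PER2* were also higher in libraries 1 and 2 than in 3 and 4 with THC (96.7 and 120.2 against 67.3 and 64.5 CPM). The same held with DMSO (89.3 and 92.7 against 78.35 and 47.9 CPM). CBD library 2 was high for *cyp2y3* (0.943) and low for *mt-nd4l* (0.855), and CBD library 4 was low for *si:dkey-22i16.9* (0.913).

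THC library 2 was low for *apobb.2* (0.836) and high for *nfe2l2b* (0.833, 12.8 CPM against 8.66 to 9.35) and *ugt2a4* (0.868), and THC library 3 was high for *cyp1c1* (0.88, 14.7 CPM against 11.3 to 11.8). DMSO library 3 was high for *zgc:123284* (0.898), *cyp2k18* (0.876, 8.12 CPM against 2.07 to 2.82), *amy2a* (0.841, 75.7 CPM against 4.71 to 15.99), *ela2* (0.944, 174 CPM against 18.6 to 27.2) and *BTG2* (0.858). DMSO library 4 was high for *gpa33a* (0.841) and *col9a3* (0.941).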

How the results depend on the processing

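Between CBD and THC the count of calls was 0 in the fit reported. It was 14 by DESeq2, 3 by limma voom, 3 with only the 8 libraries, 1 with no filter, 27 with only libraries 1 and 2, and 0 to 1 on leaving out 1 library, and it stayed 0 under each other setting run. Between CBD and DMSO it was 0 throughout. Between THC and DMSO it went from 11 to 54 by DESeq2, 18 with no filter, 0 against a fold of 1.5, 1 with only the 8 libraries, 1 adjusted over the 3 pairs together, and 1 to 31 on leaving out 1 library. The stage difference had 0 calls, and 0 to 2 on leaving out 1 library.

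The labels do not say whether numbers pair the samples. Deviations of same-numbered CBD and THC libraries correlated at 0.263, −0.028, 0.186 and 0.074. For CBD with DMSO these correlations were 0.402, −0.25, −0.002 and 0.15, and for THC with DMSO 0.224, −0.057, 0.131 and 0.327. With the replicate block the counts were 0 between CBD and THC, 1 between THC and DMSO and 1 for the stage difference.

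Of 1458 log2 fold changes of named genes recomputed, 1408 kept their direction and call, 31 passed the threshold and 19 changed sign. With only libraries 3 and 4 these were *NQO1* (0.0298), *FLI1* (0.0893), *PSMA4* (0.0153), *PSMB7* (4e-04), *SIK1* (−0.66), *JDP2* (−0.97), *BTG2* (−0.77) and *CCN1* (−0.25). With only libraries 1 and 2 they were *cyp1c1* (0.17), *CNR1* (0.34) and *mt-nd4l* (−0.0905), and with limma voom *JDP2* (−0.0065). On leaving out 1 library the range crossed 0 for *cyp1c1* (−0.1974 to 0.0029), *ahrra* (−0.4279 to 0.0119), *CNR1* (−0.38 to 0.13), *FLI1* (−0.18 to 0.0915), *mt-atp8* (−0.22 to 2.06) and *mmp13a* (−0.10 to 1.54). The cause was not tested. Of 920 list medians, 29 moved by more than the spread between libraries. Depth limits genes near 1 CPM, such as *CNR1*, whose intervals span 2-fold.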
